A study of Mus musculus with 35 samples.

Results

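The nuclear genes for subunits of the 5 oxidative phosphorylation complexes were followed in cells sorted from mouse hind paw skin. Members were taken by symbol (Nduf subunits, Sdha to Sdhd, Uqcr genes, Cox4 to Cox8 genes and Atp5 genes) with a mean of at least 10 raw counts over the 35 libraries. Of 22609 gene symbols, 17169 of them with a count, 84 carried such a name and 80 passed: 36 of complex I, 4 of complex II, 8 of complex III, 16 of complex IV and 16 of complex V. The 4 that did not pass were Atp5g2 with a mean of 4.34 counts, Ndufs5 with 0.0571, and Cox7b2 and Cox8c with none. The names set the complexes here, so Ndufa4, Ndufa4l2, Cox7a2l, Atp5s and Atp5sl were grouped by stem although some of them have other places or are not subunits.

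Complexes I to IV pass electrons along the inner mitochondrial membrane to oxygen. Complexes I, III and IV pump protons as they do so, and complex V, the ATP synthase, uses the proton gradient to make ATP. Complex II is also the succinate dehydrogenase of the tricarboxylic acid cycle and pumps no protons. Some complex IV subunits come as pairs of isoforms, one made in most tissues and the other mainly in heart and skeletal muscle, lung or testis. Mitochondrial function in sensory axons and skin is a subject of work on neuropathy after paclitaxel (PTX), a drug that stabilises microtubules.

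All mice were of strain C57 and 8 to 16 weeks old. Immune cells were CD45+ cells of wild-type mice, fibroblasts were tdTomato+ cells of Col1a2-cre-ER/tdTom mice, and keratinocytes were tdTomato+ cells of K5-cre-ER/tdTom mice. In both reporter lines the promoter in the line's name drives an inducible Cre, so a sort holds the cells in which that Cre acted. Each sort came from vehicle females, vehicle males and PTX males. PTX was given as 2 intraperitoneal injections of 2 mg/kg, with 1 day between them, and the paw skin was collected 6 days later. There were 4 libraries in each of the 9 groups, except 3 for keratinocytes of vehicle males. The labels do not say that libraries came from separate mice, so the p-values here speak of the spread among these libraries alone, and that spread could be technical. Sort and mouse line cannot be told apart. The labels name a cell type for each library, but their extraction protocol speaks of punch biopsies of the paw, so how far each library holds sorted cells rests on the cell type labels and the markers given next.

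Gene counts ranged from 13359088 to 20809036 in immune and fibroblast libraries and from 6518070 to 12055718 in keratinocyte libraries, but keratinocyte vehicle female replicate 2 held 988712. In vehicle libraries each sort carried its own markers (8 genes each, as summed CPM, the read count relative to library size scaled by TMM within the sort): pan-immune markers were at 4827 to 8643 in immune libraries, fibroblast markers at 50322 to 75404 in fibroblast libraries and keratinocyte markers at 19438 to 33441 in keratinocyte libraries. Some libraries also carried markers of other sorts. Immune libraries of vehicle males had fibroblast markers at 4414 to 10060 CPM, against 83.0 to 388 in those of vehicle females. The keratinocyte libraries of PTX males stood apart, with keratinocyte markers at 4969 to 13343 and fibroblast markers at 14742 to 20516 CPM. In bulk libraries fewer cells of a type and less RNA per cell cannot be told apart. Reads without a unique place are not in the counts. They were 48.3% to 60.9% of the reads listed for keratinocyte libraries and 34.9% to 47.8% for immune and fibroblast libraries. Of the 84 genes, 4 share over 50% of their 50-base windows with other genes (Atp5g2, Atp5l, Cox7c and Atp5h), so the levels of these are uncertain.

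Promoters of the members were read from RefSeq (GRCm38.p6, not the build of the counts, so coordinates are of the promoters alone); 66 of the 80 members were found there. The 250 bases before the start site are shown for genes the results turn on and for carriers of motifs long associated with respiratory genes. Capitals mark matches, on either strand, to GCGCATG (a core of the NRF1 motif), CCGGAAG (ETS factors, GABP among them), AAGATGG (a core of the YY1 motif), CCAAT and TATAAA. Motifs could overlap one another, and other lengths of a motif would give other shares.
Ndufa11 (complex I), chr17:56717512-56717761, plus strand: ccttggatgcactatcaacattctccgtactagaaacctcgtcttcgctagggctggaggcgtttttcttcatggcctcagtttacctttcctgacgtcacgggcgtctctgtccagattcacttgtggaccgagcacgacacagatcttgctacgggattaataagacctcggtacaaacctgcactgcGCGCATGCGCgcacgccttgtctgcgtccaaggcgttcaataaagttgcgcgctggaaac
Cox6a1 (complex IV), chr5:115348959-115349208, minus strand: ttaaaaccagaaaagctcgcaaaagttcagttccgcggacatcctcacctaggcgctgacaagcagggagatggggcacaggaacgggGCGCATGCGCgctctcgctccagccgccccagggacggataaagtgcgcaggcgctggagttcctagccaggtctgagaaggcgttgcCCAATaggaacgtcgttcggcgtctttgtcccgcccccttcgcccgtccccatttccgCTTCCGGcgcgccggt
Uqcr11 (complex III), chr10:80406822-80407071, minus strand: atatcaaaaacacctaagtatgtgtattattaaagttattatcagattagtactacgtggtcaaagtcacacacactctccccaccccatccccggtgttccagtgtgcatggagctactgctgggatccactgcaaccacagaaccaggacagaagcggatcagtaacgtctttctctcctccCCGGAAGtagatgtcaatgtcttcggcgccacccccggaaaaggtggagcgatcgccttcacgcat
Atp5e (complex V), chr2:174464102-174464351, minus strand: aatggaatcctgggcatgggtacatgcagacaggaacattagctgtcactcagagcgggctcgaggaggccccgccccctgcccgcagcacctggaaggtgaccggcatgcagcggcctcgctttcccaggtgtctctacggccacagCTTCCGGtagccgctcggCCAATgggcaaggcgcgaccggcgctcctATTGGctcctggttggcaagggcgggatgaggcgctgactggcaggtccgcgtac
Atp5b (complex V), chr10:128083057-128083306, plus strand: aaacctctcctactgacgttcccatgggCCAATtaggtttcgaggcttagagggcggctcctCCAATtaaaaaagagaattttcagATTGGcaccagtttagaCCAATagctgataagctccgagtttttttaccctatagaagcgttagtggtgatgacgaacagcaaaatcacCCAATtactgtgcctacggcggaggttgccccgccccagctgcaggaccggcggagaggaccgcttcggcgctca
Cox7a1 (complex IV), chr7:30183921-30184170, plus strand: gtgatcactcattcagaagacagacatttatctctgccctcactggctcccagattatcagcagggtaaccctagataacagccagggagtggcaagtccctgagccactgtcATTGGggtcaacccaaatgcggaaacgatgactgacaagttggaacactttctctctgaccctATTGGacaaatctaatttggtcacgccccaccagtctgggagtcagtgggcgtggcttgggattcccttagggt
Ndufa11 and Cox6a1 carry the NRF1 core, Cox6a1, Uqcr11 and Atp5e the ETS motif, and Atp5b has 5 CCAAT matches. The NRF1 core was in 13.6% of member genes (9 of 66) and 3.68% of all 27025 genes with a promoter, and the ETS motif in 18.2% (12 of 66) and 7.83%. The YY1 core was in 2 member genes (3.03%, against 5.18%). CCAAT was in 45.5% of member genes against 37.5%, and TATAAA in 7.58% against 14.3%. A match is a run of letters and not a measured binding site.

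The first comparison asked how much of each complex's message the 3 sorts carried without PTX. In the vehicle libraries the summed level of the 80 members was highest in keratinocytes, at 24094 ± 7520 CPM (SD, n = 7), against 9846 ± 845 in immune cells (n = 8) and 5879 ± 1631 in fibroblasts (n = 8). Here and in the next paragraphs CPM was scaled by TMM over the vehicle libraries. The ratio of keratinocytes to fibroblasts was 4.10, that of keratinocytes to immune cells 2.45 and that of immune cells to fibroblasts 1.67. Of the 80 genes, 65 had the order keratinocyte over immune over fibroblast by mean level, and all 8 of complex III were among them.

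**Figure D1:**
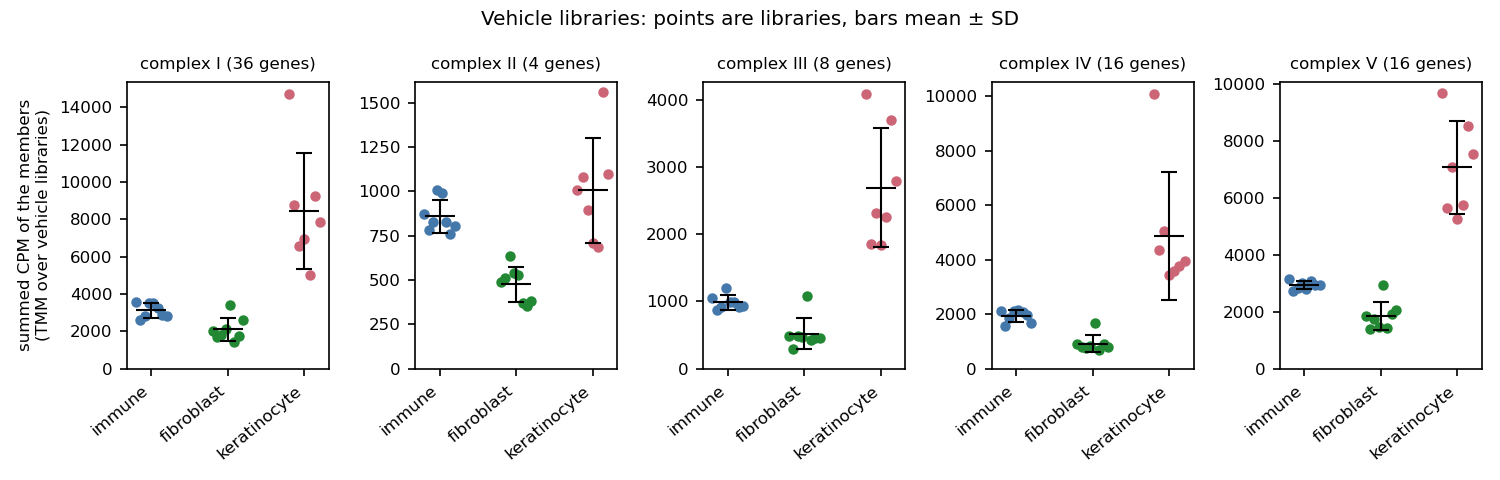
Summed CPM of the members of each complex in the vehicle libraries of the 3 sorts; each point is 1 library, bars give the mean ± SD, and each panel has its own vertical axis from 0. Keratinocyte libraries are the highest on average in all 5 panels, and in complex II their range (689 to 1560) covers that of the immune libraries (759 to 1009).

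Complex II had the smallest ratios of keratinocytes to the other sorts: its 4 genes summed to 1007 ± 295 CPM in keratinocytes, 859 ± 93.4 in immune cells and 476 ± 99.4 in fibroblasts, ratios of 2.12 and 1.17 for keratinocytes over fibroblasts and over immune cells. For immune cells over fibroblasts its ratio of 1.81 lay above those of complex I (1.48) and complex V (1.58) and below those of complex III (1.88) and complex IV (2.12). The largest ratios of keratinocytes to fibroblasts were those of complex IV (5.31) and complex III (5.15), followed by complex I (4.01) and complex V (3.81). Without TMM scaling (plain CPM) the ratio over all members was 6.32 for keratinocytes over fibroblasts and 2.96 over immune cells, with the same order of the sorts. That scaling moved the median log2 fold change of all genes from -0.40 to 0.18 for keratinocytes against fibroblasts, from -0.48 to -0.17 for keratinocytes against immune cells and from -0.05 to -0.35 for fibroblasts against immune cells, and those of members to 2.82, 1.61 and -1.24.

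Gene by gene, 60 of the 80 members were higher in keratinocytes than in fibroblasts and none lower (edgeR quasi-likelihood test, adjusted p under 0.05 over 14104 genes), where 10.5% of all genes were called higher and 20.6% lower. The median log2 fold change was 2.26 for members and -0.40 for all genes tested. Against immune cells 45 members were higher and 3 lower in keratinocytes, with 8.61% and 23.5% of all genes called so, and medians of 1.34 and -0.48. Fibroblasts had 19 members lower and none higher than immune cells, with 13.3% and 7.91% of all genes called so, and medians of -0.87 and -0.05. By complex, the share higher in keratinocytes than in fibroblasts was 27 of 36 for I, 2 of 4 for II, 8 of 8 for III, 10 of 16 for IV and 13 of 16 for V. For the directions without a call, no member had an unadjusted p under 0.05 as lower in keratinocytes than in fibroblasts and 1 as higher in fibroblasts than in immune cells, and DESeq2 called 1 in each. The 3 comparisons share their vehicle libraries. With vehicle males alone the counts of calls were 25, 5 and 2 in place of 60, 48 and 19, and with vehicle females alone 57, 39 and 8. Without TMM scaling 42 members were lower in fibroblasts than in immune cells, and without fibroblast vehicle male replicate 1 there were 32. Cytosolic ribosomal protein genes, a class looked at after the values were seen, gave 52 of 81 higher in keratinocytes than in fibroblasts (median 2.60), and mitochondrial ribosomal protein genes 19 of 76 (median 1.499). Compared with immune cells, 49 of 81 and 8 of 76 of them were higher in keratinocytes (medians 2.04 and 1.02). Other genes with transcripts of at most 1000 bases, also looked at afterwards, were higher in keratinocytes than in fibroblasts in 26.9% (median 1.004). Over immune cells 15.6% of them were higher (median 0.37). For those that also had a mean of at least 50 CPM the shares were 50.2% (median 1.54) and 29.1% (median 0.89). Of all the short genes 22.8% were lower in fibroblasts than in immune cells (median -0.84), close to the 23.75% and -0.87 of members. That share was 30.4% for the abundant short genes (median -0.76), and 11 of 81 cytosolic ribosomal protein genes were lower (median -0.51).

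**Figure D2:**
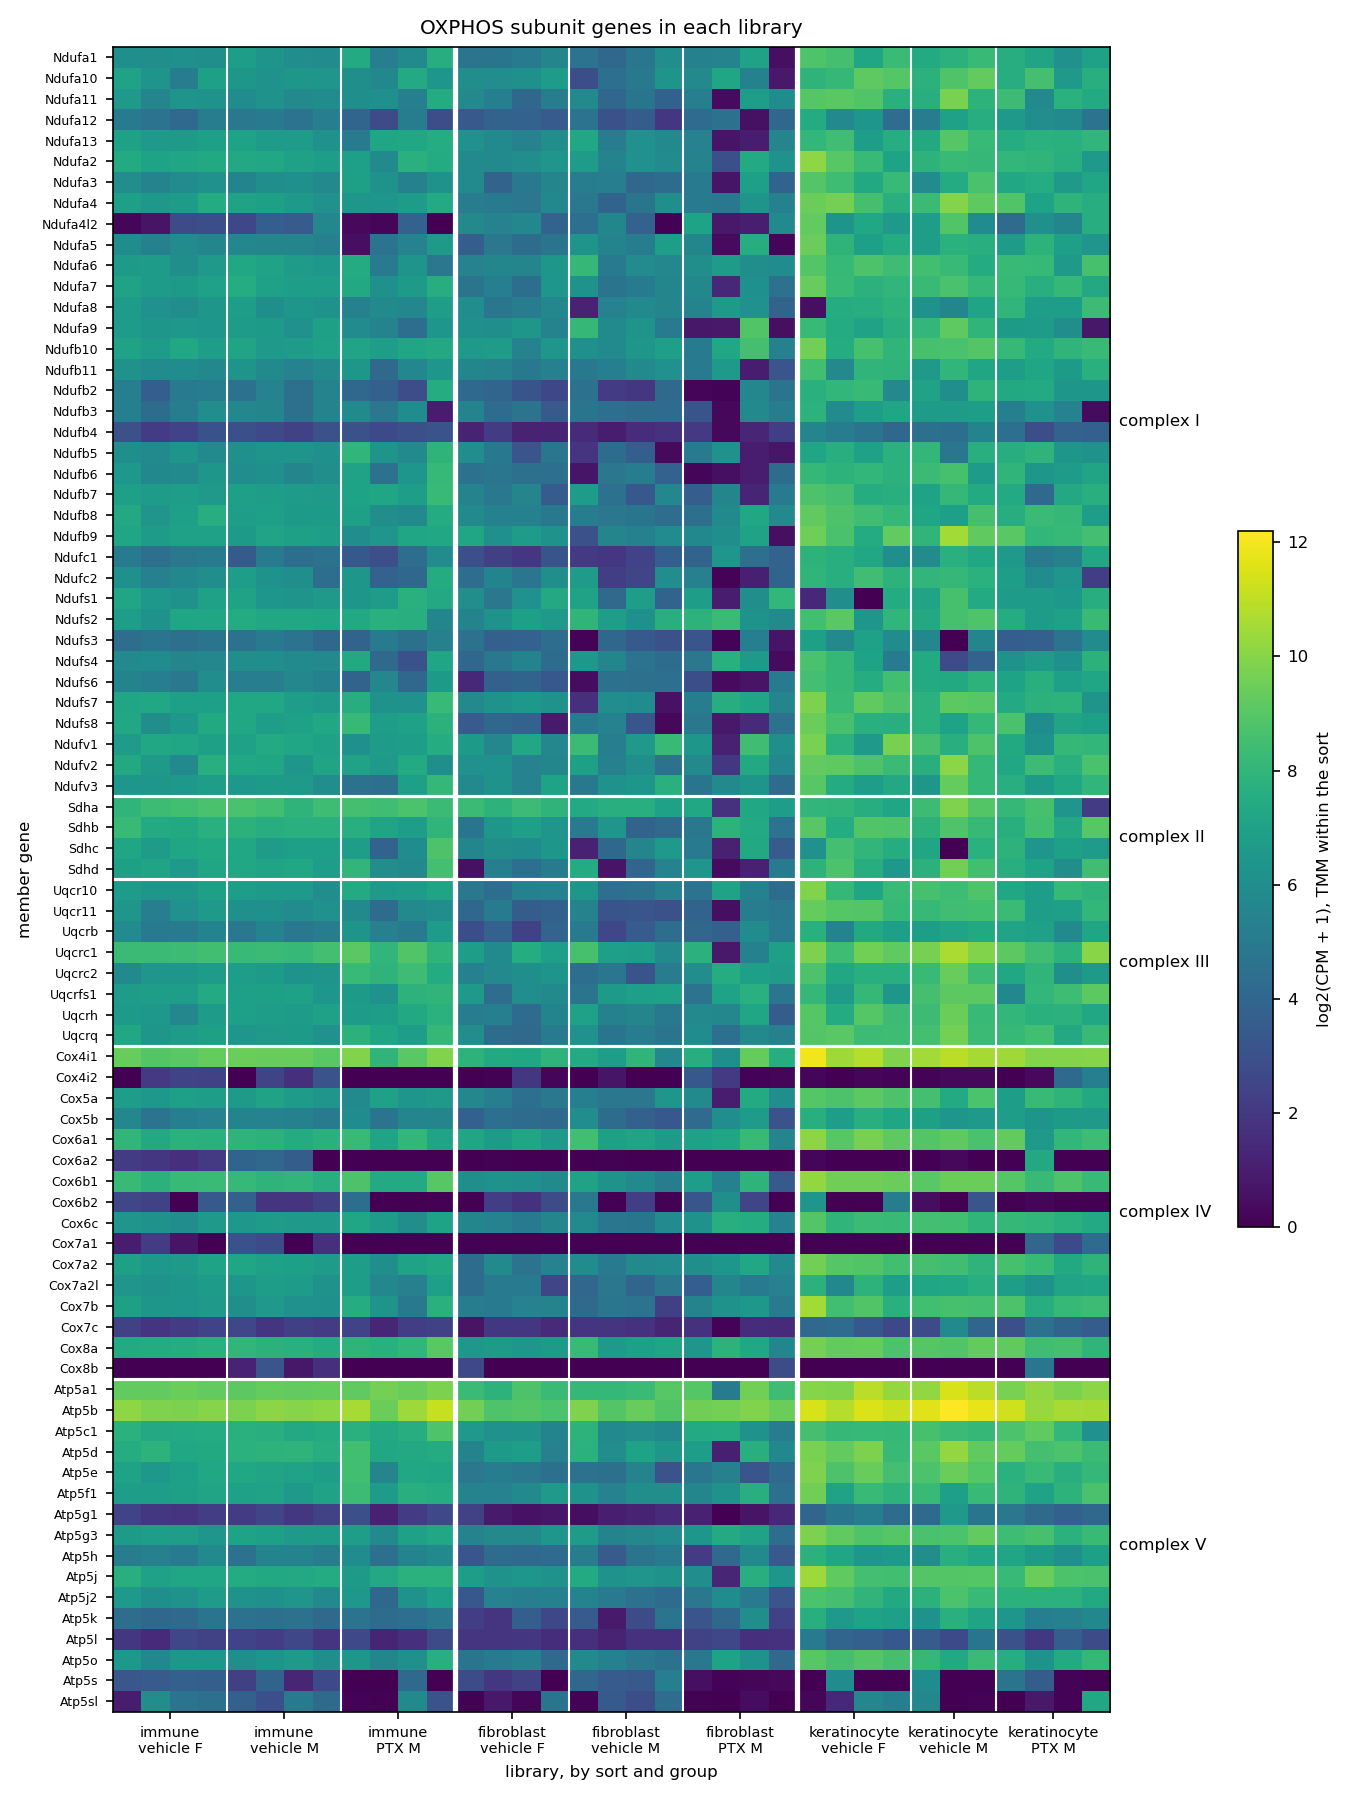
log2(CPM + 1) of each member (rows, by complex) in each of the 35 libraries (columns, by sort and group), scaled by TMM within the sort, so that colours are compared within a sort. Cox4i1, Atp5a1 and Atp5b are bright in every group, and fibroblast PTX replicate 2 has the most dark cells, with 25 members under 10 counts.

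In complex I, which takes electrons from NADH, the 2 core subunits of the NADH-oxidising arm chosen here did not pass in any sort comparison. Ndufs1, an iron-sulfur subunit, was at 79.0 to 159 CPM in immune libraries, 19.3 to 195 in fibroblast libraries and 0 to 290 in keratinocyte libraries; its keratinocyte against fibroblast log2 fold change was 0.02 ± 0.84 (SE, adjusted p = 0.9999). Ndufv1, which binds NADH, was at 146 ± 23.0, 178 ± 155 and 364 ± 275 CPM in immune cells, fibroblasts and keratinocytes, with overlapping ranges (1.07 ± 0.48 for keratinocytes over fibroblasts, adjusted p = 0.0964). The accessory subunit Ndufc1 had the largest call against fibroblasts. It was at 44.0 to 221 CPM in keratinocyte libraries and 3.46 to 15.7 in fibroblast libraries, with no overlap (log2 fold change 4.17 ± 0.67, adjusted p = 3.4e-05). Its lower level in fibroblasts than in immune cells (-1.91, adjusted p = 0.0231) was lost without immune vehicle male replicate 2 or fibroblast vehicle male replicate 3 (adjusted p up to 0.0520). Ndufs8, a core iron-sulfur subunit, was 3.69 ± 0.70 higher on the log2 scale (adjusted p = 0.000266) and lower in fibroblasts than in immune cells by -2.92 ± 0.67 (adjusted p = 0.00236); its fibroblast libraries ran from 0.267 to 51.0 CPM, below every immune and keratinocyte library.

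In complex II the catalytic pair differed. Sdha, the flavoprotein, was at 292 ± 187 CPM in keratinocytes, 357 ± 66.9 in immune cells and 286 ± 78.2 in fibroblasts, and the ranges overlapped; the keratinocyte against fibroblast log2 fold change was 0.01 ± 0.29 (adjusted p = 0.9999). Sdhb, the iron-sulfur subunit, was at 304 ± 119 CPM in keratinocytes, 224 ± 42.4 in immune cells and 70.3 ± 46.7 in fibroblasts. It was higher in keratinocytes than in fibroblasts by 2.14 ± 0.41 (adjusted p = 0.000292) and lower in fibroblasts than in immune cells by -1.76 ± 0.40 (adjusted p = 0.00205).

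All 8 complex III genes were higher in keratinocytes than in fibroblasts. Uqcr11, a small accessory subunit, was at 215 to 596 CPM in keratinocyte libraries against 9.87 to 57.5 in fibroblast libraries, with no overlap (log2 fold change 3.89 ± 0.48, adjusted p = 8.7e-07). Uqcrc1, a core protein, was at 679 ± 271 CPM against 184 ± 152 (1.94 ± 0.37, adjusted p = 0.000295) and at 342 ± 30.8 in immune cells. Its call over immune cells (1.001 ± 0.37, adjusted p = 0.0381) was lost when any 1 of 10 libraries was left out (adjusted p up to 0.0711). The Rieske iron-sulfur protein Uqcrfs1 was at 257 ± 145, 95.6 ± 54.3 and 125 ± 28.5 CPM in keratinocytes, fibroblasts and immune cells; it passed against fibroblasts (1.43 ± 0.43, adjusted p = 0.0132) and not against immune cells (0.995 ± 0.43, adjusted p = 0.0765).

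In complex V the catalytic beta subunit Atp5b was the most abundant member by CPM in every sort. It was at 1560 to 3369 CPM in keratinocyte libraries, 917 to 1188 in immune libraries and 515 to 1230 in fibroblast libraries, so keratinocytes stood above both others (1.76 ± 0.22 over fibroblasts, adjusted p = 7.59e-07; 1.23 ± 0.22 over immune cells, adjusted p = 9.22e-05). Atp5a1, the alpha subunit, was at 1264 ± 467, 662 ± 44.3 and 432 ± 139 CPM in keratinocytes, immune cells and fibroblasts, and keratinocytes passed against both (1.57 ± 0.25 and 0.95 ± 0.25). Atp5e, the small epsilon subunit, had the lowest p of all members in the comparison with fibroblasts. It was at 301 to 856 CPM in keratinocytes, 93.9 to 164 in immune cells and 10.8 to 55.0 in fibroblasts, with no overlap between sorts (3.81 ± 0.38 over fibroblasts, adjusted p = 2.67e-08). Fibroblasts were below immune cells by -2.06 (adjusted p = 9.71e-05). The c-ring genes Atp5g1 and Atp5g3 encode the same mature protein with different targeting peptides. By CPM, Atp5g3 was at 458 in keratinocytes, 111 in immune cells and 77.3 in fibroblasts, and Atp5g1 at 25.7, 3.88 and 1.67. Per kilobase of transcript, Atp5g3 was at 641, 156 and 108 CPM, and Atp5g1 at 5.44, 0.822 and 0.354. The per-kilobase values took transcripts of 714 bases for Atp5g3 and 4715 for Atp5g1, so the distance between the 2 genes depends on the transcript chosen. Atp5g1 was called higher in keratinocytes than in fibroblasts (log2 fold change 3.95, adjusted p = 0.00346). Atp5g2, whose 50-base windows are all shared with other genes, was below the count limit.

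Complex IV, which reduces oxygen, holds the isoform pairs. The isoforms made in most tissues had the order of the whole complex. Cox4i1 was at 1550 ± 969 CPM in keratinocytes, 643 ± 83.4 in immune cells and 217 ± 84.5 in fibroblasts, and all 3 sort differences passed (2.79 ± 0.33 for keratinocytes over fibroblasts, adjusted p = 4.37e-07). Cox5a, another nuclear subunit of the enzyme, was at 344 ± 116, 111 ± 16.9 and 50.0 ± 29.0 CPM. It also passed all 3, although the difference of fibroblasts from immune cells (-1.17 ± 0.36, adjusted p = 0.0200) was lost without fibroblast vehicle male replicate 3 (adjusted p = 0.0558). Cox6a1, Cox7a2 and Cox8a were each higher in keratinocytes than in both other sorts, with log2 fold changes of 1.39, 2.66 and 1.58 over fibroblasts. Cox7a2l, a factor of supercomplex assembly, was higher in keratinocytes than in fibroblasts (2.27 ± 0.52, adjusted p = 0.00156) and not called against immune cells (0.46 ± 0.50, adjusted p = 0.540).

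The muscle-type isoforms Cox6a2 and Cox7a1 showed another pattern: they had reads mainly in immune libraries. Cox6a2 was at 3.65, 2.95, 2.27 and 3.42 CPM in immune libraries of vehicle females, at 15.2, 17.0, 11.6 and 0 in those of vehicle males, and at no more than 0.130 in any vehicle fibroblast or keratinocyte library. Cox7a1 was at 0 to 7.85 CPM in immune libraries and had no count in the 8 fibroblast and 7 keratinocyte libraries; against 3 counts per library, immune cells were at least 8.65-fold higher than fibroblasts and at least 1.32-fold higher than keratinocytes, whose shallowest library sets that bound. Both were called lower in fibroblasts and in keratinocytes than in immune cells, with adjusted p from 0.00184 to 0.0155. For Cox7a1 both calls were lost with DESeq2 and with vehicle males alone (adjusted p up to 0.117 against fibroblasts and 0.146 against keratinocytes). Cox4i2, the lung-type partner of Cox4i1, was at 0 to 7.85 CPM in immune libraries against 0 to 3.53 and 0 to 0.151 in fibroblast and keratinocyte libraries, and was called lower in keratinocytes (adjusted p = 0.0439). That call was lost when any 1 of 13 of the 15 libraries was left out (adjusted p up to 0.109). Cox8b, the muscle-type partner of Cox8a, was at 0 to 8.59 CPM in immune libraries, and in 1 fibroblast library at 6.81 (adjusted p = 0.99995 between them). Per kilobase, Cox6a2 reached 10.3 CPM in immune cells against 397 for Cox6a1, and Cox4i2 4.79 against 864 for Cox4i1. Skeletal muscle markers (9 genes) summed to 998, 1337, 487 and 29.4 CPM in immune vehicle male replicates 1 to 4. Cox6a2 had reads in the first 3 of these and none in replicate 4. Cox7a1 had 149, 107, 0 and 43 counts there, so it had none in replicate 3 and some in replicate 4. In vehicle females the muscle markers summed to 15.7 to 32.01 CPM. The part of muscle markers in the result was not tested.

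Ndufa4l2, a paralog of Ndufa4 that is known as a hypoxia-inducible gene, had the largest call of keratinocytes over immune cells (4.44 ± 0.99, adjusted p = 0.00133). It was at 48.0 to 575 CPM in keratinocyte libraries, 0.112 to 51.0 in immune libraries and 0.0889 to 64.4 in fibroblast libraries. Ndufa4 itself was at 462 ± 228, 120 ± 36.0 and 44.3 ± 22.4 CPM in keratinocytes, immune cells and fibroblasts and passed all 3 comparisons. After Ndufa4l2, the next largest over immune cells were Atp5g1 (2.73), Atp5k (2.38), Ndufa11 (2.26) and Ndufc1 (2.26). The Atp5g1 call (adjusted p = 0.0279) was lost without immune vehicle female replicate 3, immune vehicle male replicate 3 or keratinocyte vehicle male replicate 2 (adjusted p up to 0.0897).

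Other genes of the pathway, from lists chosen by function, are given next by their counts. For comparison, 10.5% of all genes were called higher and 20.6% lower in keratinocytes than in fibroblasts. Between keratinocytes and fibroblasts 3 of 16 tricarboxylic acid cycle genes were higher, among them Cs, citrate synthase (1.62 ± 0.40, adjusted p = 0.00351), and none lower. Of 11 electron and metabolite carriers 5 were higher, Cyc1 (cytochrome c1, a complex III subunit outside the name rule) by 2.19 ± 0.37 (adjusted p = 6.07e-05). Of 28 assembly factors tested 4 were higher and 2 lower; Atpif1, the inhibitor of the ATP synthase, was higher by 3.37 ± 0.37 (adjusted p = 1.18e-07). Glycolysis had 3 of 14 genes higher, among them Ldha (1.21 ± 0.30, adjusted p = 0.00313), and 1 lower, Hk2, a hexokinase at 45.6 ± 22.7 CPM in keratinocytes and 381 ± 195 in fibroblasts (-3.05 ± 0.49, adjusted p = 3.19e-05). Among 11 regulators of mitochondrial biogenesis the median was 0.94 and the lowest p that of Yy1 (1.91 ± 1.26, adjusted p = 0.276). The genes encoded in mitochondrial DNA were not analysed here.

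The second comparison set PTX males against vehicle males in each sort. CPM is scaled within the sort from here on. In immune cells 2 of 80 members passed, 2.5% against 5.51% of all 12131 genes tested: Uqcrc2 was higher and Cox6a2 lower in PTX males than in vehicle males. The median log2 fold change was 0.14 for members, 52 of them positive, and 0.10 for all genes, but limma with voom turned it to -0.17 (all genes -1.22) and the replicate block to -0.04 (37 of 80 positive, all genes -0.61). Summed CPM of all members was 11303 ± 3545 in PTX males and 9370 ± 562 in vehicle males, and the ranges of 7192 to 15574 and 8814 to 9939 overlapped.

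**Figure D3:**
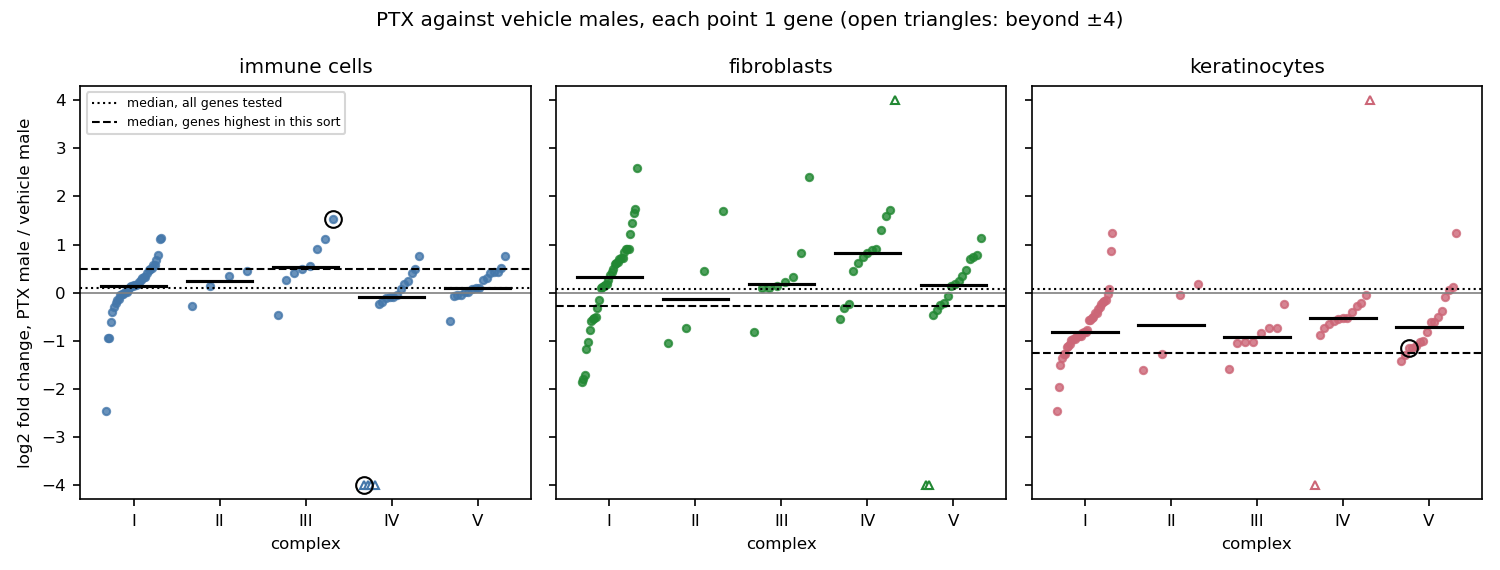
log2 fold change of PTX males over vehicle males for each member tested (points), by complex and sort; black bars are medians of a complex, the dotted line is the median of all genes tested, the dashed line that of the genes higher in this sort than in both others, and circles mark members with adjusted p under 0.05. The genes of the dashed line were chosen by vehicle levels that include the same vehicle males, which favours values below 0. Open triangles stand for genes beyond the axis. In keratinocytes 69 of 77 members lie below 0, and the medians of all 5 complexes lie between the dotted line at 0.07 and the dashed line at -1.26.

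Uqcrc2, a core protein of complex III, was at 112, 97.6, 75.6 and 78.7 CPM in immune libraries of vehicle males and at 294, 246, 335 and 180 in those of PTX males. The groups did not overlap, as for 3.11% of all genes in this direction, and the log2 fold change was 1.54 ± 0.32 (adjusted p = 0.0173). The 4 vehicle females, at 56.8 to 105 CPM, also lay below every PTX library. The call was lost without vehicle male replicate 2, 3 or 4 (adjusted p = 0.0569 to 0.0648) and with the replicate number as a block (adjusted p = 0.0690). Of the 8 complex III genes 7 had positive fold changes, with a median of 0.53; the next, Uqcrq, did not overlap either but did not pass (1.11 ± 0.36, adjusted p = 0.0837).

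**Figure D4:**
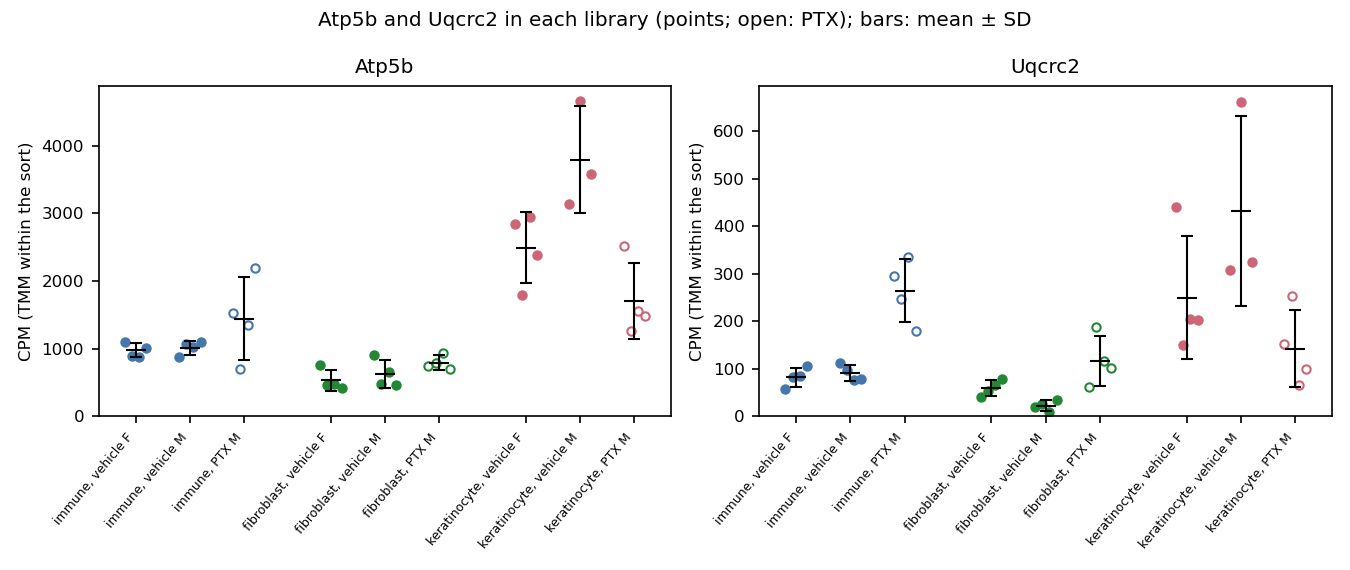
CPM of Atp5b and Uqcrc2 in each library (points, open for PTX males) with mean ± SD, by sort and group, scaled by TMM within the sort. Uqcrc2 is higher in all 4 immune PTX libraries than in the 8 vehicle ones, and Atp5b is lower in all 4 keratinocyte PTX libraries than in the 3 of vehicle males.

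Cox6a2 had no count in the 4 immune libraries of PTX males and was at 14.4, 16.2, 11.1 and 0 CPM in vehicle males, so the groups share the value 0. Against 3 counts per library the vehicle male mean of 10.4 ± 7.27 CPM was at least 40.8-fold higher (adjusted p = 0.0392). The call was lost without vehicle male replicate 1, 2 or 3 or PTX replicate 1, 2 or 4 (adjusted p up to 0.0874), and in 5 of 7 other alternatives: no filter on low counts (0.0561), the replicate block (0.129), limma with voom (0.408), vehicle females as controls (0.101) and both sexes as controls (0.0521). Cox7a1, Cox8b and Cox4i2 also had no count in the PTX libraries. Their vehicle male levels were 0 to 7.46, 0.708 to 8.19 and 0 to 7.56 CPM, at least 15.2-, 12.2- and 14.1-fold higher by their means, and none passed (adjusted p = 0.0647 to 0.0880); Cox8b was the 1 member lying below its vehicle male values in every PTX library, as 10.8% of all genes did. Beside these, skeletal muscle markers summed to 29.4 to 1337 CPM in vehicle males and 51.8 to 76.9 in PTX males, and pericyte markers (8 genes) to 242 to 2169 and 2.84 to 42.7. Adipocyte markers (7 genes) summed to 214 to 2365 CPM in vehicle males and 0.619 to 10.2 in PTX males. Of these markers Ucp1 was at 0 in all 3 immune groups, and Plin1 and Lep were at 0 in PTX males and in vehicle females. The adipocyte sums were 895, 2365, 335 and 214 CPM in vehicle male replicates 1 to 4, where Cox8b had 27, 146, 13 and 46 counts. Endothelial markers (7 genes) summed to 105 to 499 and 0.341 to 0.774, with Kdr and Emcn at 0 in PTX males, and of the muscle markers Myh1, Myh2 and Myh4 were at 0 there. Fibroblast markers were at 4414 to 10060 CPM in vehicle males and 239 to 1446 in PTX males. Their part in the result was not tested.

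Of 90 other pathway genes tested in immune cells, 2 were lower in PTX males, both assembly factors of complex I, and none higher (7 had an unadjusted p under 0.05). Among all genes tested there, 4.56% were called lower and 0.956% higher. Ndufaf1 was at 12.9 ± 5.99 CPM in vehicle males and had no count in PTX males, at least 50.6-fold lower (adjusted p = 0.0395). Foxred1 was at 42.7 CPM and 0.532 CPM (-6.32 ± 1.65, adjusted p = 0.0415). In fibroblasts none of 88 and in keratinocytes none of 86 such genes passed with edgeR, where 5 and 3 had an unadjusted p under 0.05. The shares of all genes that passed were 0.0184% and 1.45%.

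**Figure D5:**
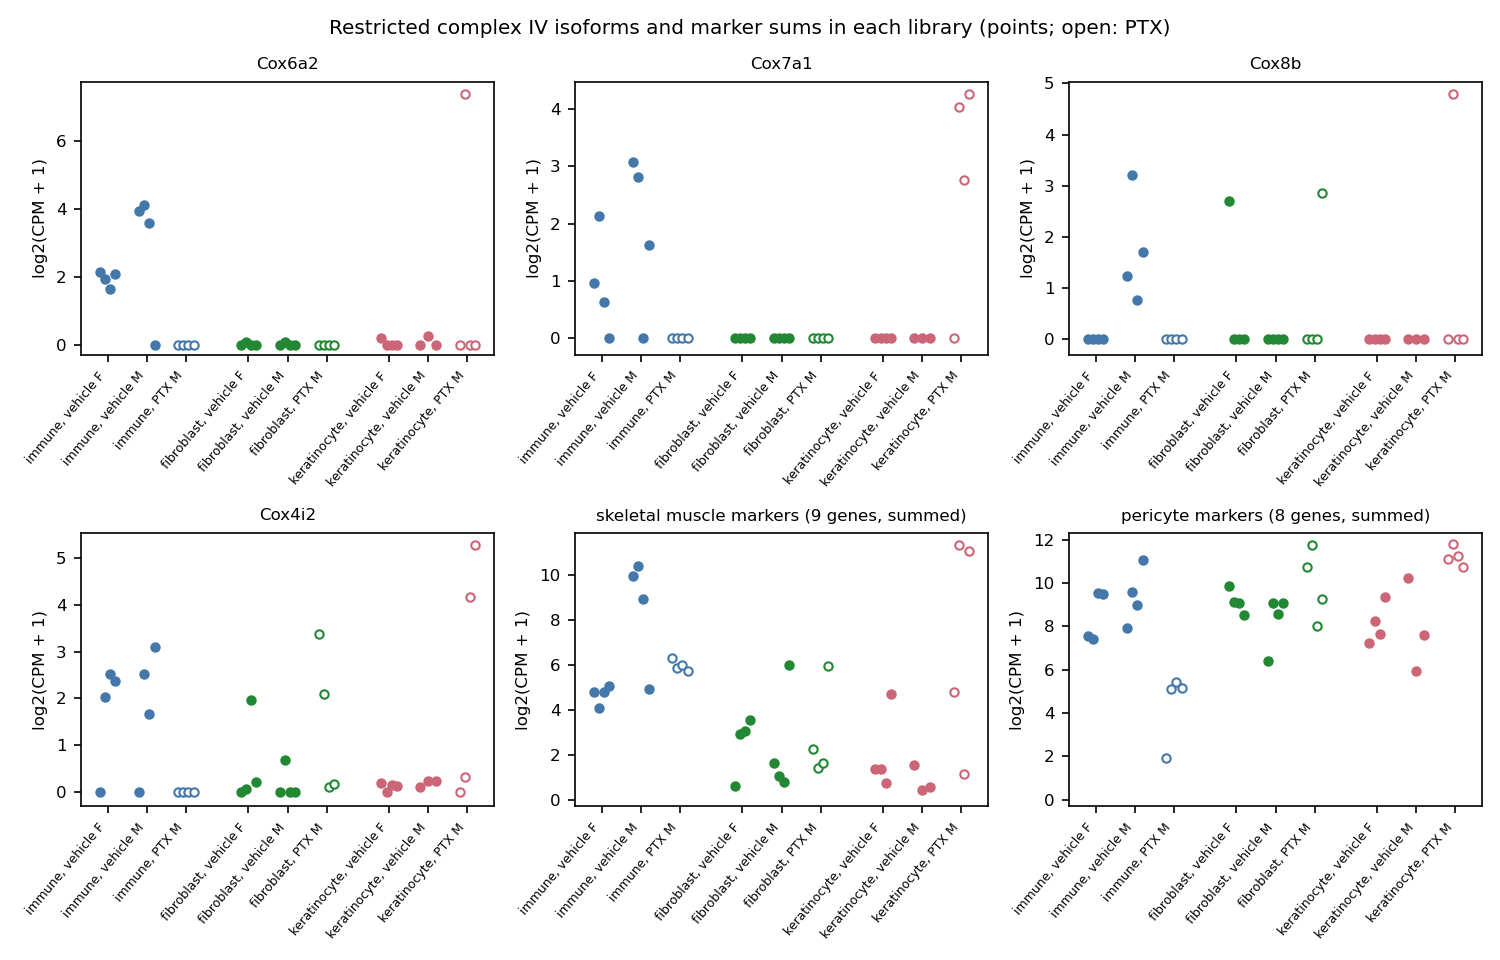
log2(CPM + 1) of Cox6a2, Cox7a1, Cox8b and Cox4i2 and of the summed skeletal muscle and pericyte markers in each library (points, open for PTX males). The 4 genes lie at 0 in all immune PTX libraries, and the highest values in keratinocytes are those of PTX libraries, 165 CPM for Cox6a2 and 26.8 for Cox8b in replicate 2 and 37.4 for Cox4i2 in replicate 4.

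In fibroblasts none of the 77 members that passed the count filter (all but Cox6a2, Cox7a1 and Cox8b) was called by edgeR, against 0.0184% of all 10857 genes. An unadjusted p under 0.05 was reached by 3 members, and DESeq2 called 2 and limma with voom 0. The median was 0.32 for members, 52 of them positive, and 0.08 for all genes, and limma with voom turned it to -0.05 (all genes -0.30). The lowest p belonged to Atp5s, a coupling-factor-like gene, at 9.75 to 36.9 CPM in vehicle males and 0.0987 to 0.423 in PTX males (-6.29 ± 2.21, adjusted p = 0.468), and to Uqcrc2, at 8.02 to 34.2 and 61.9 to 187 CPM (2.40 ± 0.88, adjusted p = 0.468). Neither pair of groups overlapped. Members lying above their vehicle male values in every PTX library were Uqcrc2, Cox7b and Ndufc1, against 1.38% of all genes, and Atp5s lay below, against 1.81%. Vehicle females, at 39.6 to 78.3 CPM of Uqcrc2, lay above the vehicle males, and against them the log2 fold change was 0.98 (adjusted p = 0.997). Summed CPM of all members ran from 3605 to 9380 in PTX males and from 3522 to 7133 in vehicle males.

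In keratinocytes 1 of 77 members passed, 1.30% against 1.45% of all 10939 genes. Atp5b was at 3137, 4667 and 3574 CPM in vehicle males and at 2523, 1253, 1558 and 1477 in PTX males. The groups did not overlap, and the log2 fold change was -1.16 ± 0.27 (adjusted p = 0.0309). Vehicle females lay between, at 1796 to 2944 CPM, and overlapped the PTX males; with them as controls the value was -0.55 (adjusted p = 0.332). DESeq2 and the replicate block did not call it (adjusted p = 0.109 and 0.0600), nor did limma with voom (0.307) or a fit of only the groups compared (0.0626). The call was also lost without any 1 of 6 of the 7 libraries, PTX replicate 1 being the exception (adjusted p = 0.0612 to 0.199 without the others).

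The members as a whole lay lower in the keratinocyte libraries of PTX males: 69 of 77 fold changes were negative, with a median of -0.73 against 0.07 for all genes. The medians were -0.83, -0.67, -0.93, -0.54 and -0.72 for complexes I to V. Summed CPM was 17477 ± 2384 in PTX males, 29539 ± 7174 in vehicle males (n = 3) and 29290 ± 8967 in vehicle females. In 13 of 77 members every PTX library lay below every vehicle male library, as in 4.29% of all genes. Of the genes higher in keratinocytes than in both other sorts, 611 of 666 were negative too, with a median of -1.26. These genes were chosen by their vehicle levels, from libraries that include the same vehicle males. That choice by itself favours negative values, so their median is no independent measure beside that of the members. Among cytosolic ribosomal protein genes 16 of 80 were positive, with a median of -0.61, and among other genes with transcripts of at most 1000 bases 260 of 624, with a median of -0.33. Of those short genes with a mean of at least 50 CPM, 109 of 321 were positive, with a median of -0.43. In the same libraries keratinocyte markers were at 4969 to 13343 CPM against 27657 to 33237 in vehicle males. Fibroblast markers were at 14742 to 20516 against 111 to 574, pan-immune markers at 1034 to 1357 against 11.6 to 67.0, and endothelial markers (7 genes) at 1829 to 2701 against 0.876 to 380. Their part in the result was not tested.

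The muscle-type isoforms also had reads there. Cox6a2 was at 165 CPM and Cox8b at 26.8 in PTX replicate 2 and at 0 in the other 3, and Cox7a1 at 0, 15.4, 5.76 and 18.4 in replicates 1 to 4. Cox4i2 was at 0, 0.259, 17.0 and 37.4. Skeletal muscle markers were at 26.5, 2548, 1.20 and 2160 CPM there. In replicate 3 Cox7a1 and Cox4i2 thus had reads with muscle markers at 1.20. Pericyte markers were at 1686 to 3602 CPM in PTX males against 59.9 to 1189 in vehicle males. The adipocyte sum was 356 to 792 against 0 to 0.181, from 1 of its 7 markers, with Adipoq, Plin1, Cidec, Lep, Ucp1 and Cfd at 0. The part of these in the isoform reads was not tested.

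The third comparison tested whether the PTX effect differed between sorts. Between fibroblasts and immune cells no member passed (edgeR), as 3.51% of 13329 genes did; 4 had an unadjusted p under 0.05 and DESeq2 called 2. Between keratinocytes and immune cells 6 of 80 passed, 7.5% against 9.6% of 13829 genes. Atp5b had the lower effect in keratinocytes, by -1.85 ± 0.47 (adjusted p = 0.0141), and so had Uqcrc2, by -3.32 ± 0.86 (adjusted p = 0.0169). The other 4 were Cox6a2, Cox7a1, Cox4i2 and Cox8b, with adjusted p from 0.0222 to 0.0433; each was at 0 in immune cells of PTX males and had reads in keratinocytes of PTX males. Between keratinocytes and fibroblasts 1 of 79 passed, against 3.31% of 13084 genes: Uqcrc2, by -4.09 ± 1.13 (adjusted p = 0.0375). Uqcrc2 in keratinocytes was at 308, 662 and 325 CPM in vehicle males and at 151, 254, 66.6 and 98.5 in PTX males, and that difference alone did not pass (-1.60 ± 0.69, adjusted p = 0.280). Without keratinocyte vehicle male replicate 2 or 3 none of these 6 passed, and without replicate 1 only Atp5b and Uqcrc2 did (adjusted p up to 0.0732 and 0.0814 over all libraries left out, and up to 0.0843 and 0.0717 for Cox4i2 and Cox7a1). Cox6a2 and Cox8b were also lost without keratinocyte PTX replicate 2 (adjusted p = 0.9999), and Cox8b in 10 of 15 such fits. The Uqcrc2 difference from fibroblasts was lost in 10 of 15 (adjusted p up to 0.117).

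The fourth comparison set vehicle females against vehicle males. No member passed in any sort (edgeR), where 0.354% of genes passed among immune libraries, 0.0184% among fibroblast and 0.00914% among keratinocyte libraries. Unadjusted p under 0.05 was met by 1 member in immune cells (Cox8b, with no count in females and 0.708 to 8.19 CPM in males), none in fibroblasts and 1 in keratinocytes (Atp5b, -0.61 ± 0.27, adjusted p = 0.591). DESeq2 called no member in any sort, and limma with voom called 1 in immune cells and none in the other sorts. These comparisons share the vehicle males with those of PTX. The medians were -0.04, -0.10 and 0.12 for members in immune cells, fibroblasts and keratinocytes.

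The spread between libraries was also set beside that of other expressed genes. The median SD of log2(CPM + 1) was 0.25 over members and 0.51 over the genes with at least 10 CPM in immune cells of vehicle males. In immune cells of PTX males it was 0.72 and 2.40, in fibroblasts of vehicle males 0.90 and 1.86 and of PTX males 1.67 and 2.48, and in keratinocytes of vehicle males 0.64 and 2.98 and of PTX males 0.66 and 2.40. Members with fewer than 10 counts numbered 0 to 9 in vehicle libraries and up to 25 in 1 library, fibroblast PTX replicate 2.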

How the data were processed

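RNA was measured by single-end sequencing of polyA libraries of paw skin cells (sorted per the cell type labels, although the labels' extraction protocol names punch biopsies), 35 libraries in 9 groups taken from the labels. The values are raw read counts per gene symbol that the authors deposited, 1 table per library. Per the submitters' processing notes, bcl2fastq, TopHat2, HTSeq and mouse build mm9 were used. For these tools the version, and for the counting the annotation and strand, were not given in the sources used here. Genes took 19.3% to 27.2% of the reads listed in each keratinocyte table, 38.7% to 46.0% in immune and 35.4% to 52.3% in fibroblast tables. This share and the keratinocyte sort cannot be told apart. The lines for reads outside genes entered neither library sizes nor tests.

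The members and the gene lists were chosen with earlier results of these data known. Counts were tested with edgeR 4.0.16 in R 4.3.3 (filterByExpr, TMM, robust quasi-likelihood fit, two-sided, Benjamini-Hochberg adjustment over all genes tested, threshold 0.05). Each sort was fitted apart over its 3 groups. Sort differences came from a fit over the 23 vehicle libraries with the sexes weighted equally, and differences in PTX effect from fits over both sorts. SE is that of the log2 fold change. A floor of 3 counts per library stands in for genes at 0. The biological coefficient of variation was 1.23 in the immune, 1.41 in the fibroblast and 1.71 in the keratinocyte fit. The same fit was also run on simulated counts with known changes, and its outcome there is not given here.

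Named genes were, per comparison, up to 5 members per direction with the largest change among those called, otherwise the 2 with the lowest p. Added to these were 10 subunits chosen over the 5 complexes, the paralog groups, and up to 2 called genes per pathway list. Alternatives were DESeq2 1.42.0, limma 3.58.1 with voom, other scalings, filters, controls and designs, and leaving out each library. No pair of libraries of the same group agreed within sampling noise (chi-square per degree of freedom at least 89.8), and pairs across groups were not compared in this way. Same-numbered libraries of a sort had correlations of their deviations of -0.0532 to 0.0994, and differently numbered ones of -0.131 to 0.0759. No pairing by number was seen, but with so large a spread between libraries a shared batch could go unseen.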

Additional observations from a re-analysis of the deposited data

Results flagged for a closer look

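In 10 of 136 groups of 4 libraries, 1 library lay far from the other 3, and chance gives about 1 in 20. For complex sums, complex II was at 431 CPM in keratinocyte PTX replicate 3 (others 911 to 981). Complex III was at 248 CPM in fibroblast vehicle female replicate 2 (others 393 to 406), at 800.4 in fibroblast vehicle male replicate 1 (others 331 to 358) and at 984 in immune PTX replicate 2 (others 1484 to 1565). Complex IV was at 4576 CPM in keratinocyte PTX replicate 1 (others 3105 to 3242). For single genes, Ndufs1 was at 190 CPM in keratinocyte PTX replicate 4 (others 89.7 to 104) and Cox4i1 at 1393 in replicate 1 (others 962 to 999.6). Uqcrfs1 was at 173 CPM in immune vehicle female replicate 4 (others 103 to 113) and Atp5a1 at 702 in replicate 3 (others 612 to 622). Atp5b was at 762 CPM in fibroblast vehicle female replicate 1 (others 424 to 480).

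The PTX effect differed between sorts for 6 members, by the interaction test of edgeR. For keratinocytes and immune cells these were 7.5% of the members tested, against 9.6% of all genes. Between keratinocytes and immune cells the log2 effects of Atp5b and Uqcrc2 differed by -1.85 and -3.32. Those of Cox4i2, Cox6a2, Cox7a1 and Cox8b differed with adjusted p = 0.0265, 0.0222, 0.0231 and 0.0433, with no fold given since all 4 were at 0 in immune cells of PTX males. Between keratinocytes and fibroblasts the effect on Uqcrc2 differed by -4.09, where 1.27% of members and 3.31% of all genes passed. None of the differences listed here passed without keratinocyte vehicle male replicate 2 or without replicate 3.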

How the results depend on the processing

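No called member that the text names changed sign under the alternatives run. Counts of called members moved as follows. For PTX in immune cells the 2 calls became 1 with no filter on low counts, 1 with limma and voom, 1 with vehicle females as controls, 1 with both sexes as controls (the call lost in these 4 was Cox6a2) and 5 with DESeq2, and 0 to 4 without 1 library. For PTX in fibroblasts DESeq2 called 2 where edgeR called 0, and no library left out gave a call (0 to 0). For PTX in keratinocytes the 1 call became 0 with DESeq2, with vehicle females as controls and with only the groups compared, and 0 to 1 without 1 library. For females against males limma with voom called 1 in immune cells, and leaving out a library gave 0 in every sort. Between sorts, vehicle males alone gave 25, 5 and 2 calls in place of 60 (keratinocytes against fibroblasts), 48 (keratinocytes against immune cells) and 19 (fibroblasts against immune cells). Vehicle females alone gave 8 in place of 19, and plain CPM 42. Without 1 library the counts were 60 to 63, 38 to 53 and 15 to 32. For the differences in PTX effect, DESeq2 called 2 between fibroblasts and immune cells in place of 0 and 4 between keratinocytes and fibroblasts in place of 1, and no filter gave 0 for the latter. Without 1 library these ranged from 0 to 1, from 0 to 7 (keratinocytes against immune cells) and from 0 to 1. The cause was not tested, beyond fewer libraries where sexes or libraries were left out.

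No pairing of the libraries by replicate number was seen, though a shared batch could go unseen. A replicate block gave 0 calls for PTX in immune cells and 0 in keratinocytes. It gave 1 and 0 for the differences of the PTX effect in keratinocytes from immune cells and from fibroblasts. Under it the sort counts were 60, 40 and 20. Depth limits genes at a few counts per library, such as Cox7a1, Cox8b and Cox4i2.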
